A study of Mus musculus with 8 samples.

Results

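Glutamate and GABA receptors carry most fast and much slow signalling between neurons of the cerebral cortex, and their subunit genes were followed here in mice that can lose the kinase TAK1 from endothelial cells. Genes were taken by symbol, as those named for AMPA, delta, kainate and NMDA receptor subunits (Gria, Grid, Grik, Grin), metabotropic glutamate receptors (Grm), GABA-A subunits of any class (Gabr) and GABA-B subunits (Gabbr). The rule found 45 of the 28732 genes in the table, of which 43 are receptor subunits. The other 2 encode no receptor subunit, and 1 of them is Grin1os, an antisense transcript of Grin1. Grm4, Grm6, Gabrp and Gabrr3 were not analysed here.

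RNA of the cortex was sequenced from 4 knockout libraries, of genotype Cdh5-CreER::Tak1fl/fl, and 4 control libraries, of genotype Tak1fl/fl without the recombinase. Both groups carry the floxed Tak1 alleles and received tamoxifen, and age is given as postnatal day 90 in the sample labels and as 12 to 14 weeks in the series text. Cdh5-CreER is a tamoxifen-inducible recombinase under the promoter of the endothelial cadherin gene. The deletion is therefore directed at cells that line vessels and not at neurons as such. Libraries carry their column numbers here, 2 to 5 for knockouts and 1 to 4 for controls. Whether every library came from its own mouse is not stated, and the p-values cover only the spread among the 8 libraries.

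Levels are given as CPM, which are counts scaled to library size with TMM factors, and differences as log2 fold changes of knockout over control, where positive means higher in knockouts. The knockout libraries held 14429075 to 17614938 counts and the control libraries 13483354 to 17728963. The receptor genes took 0.583% to 0.767% of them in knockouts and 0.637% to 0.726% in controls. Map3k7, the gene of TAK1, stood at 38.8 ± 3.16 CPM in knockouts and 40.0 ± 2.89 CPM in controls (SD, n = 4 each), and because other cortical cells express it this level does not check the deletion. The tissue label was checked against markers. The vesicular glutamate transporter Slc17a7 was at 267 to 405 CPM and the GABA-synthesising enzyme Gad1 at 226 to 277 CPM in all 8 libraries, and the granule cell subunit Gabra6, a marker of cerebellum, was at 0 to 2 counts per library. In bulk RNA, fewer cells of a type and less RNA per cell cannot be told apart.

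Marker sums of some other cell types differed between the groups, and their part in the receptor results was not tested. The summed level of 7 choroid plexus and ependyma markers was 376 to 537 CPM in knockouts and 16.3 to 189 CPM in controls, with 2 of the 7 passing as higher. Most of that sum was Ttr, which did not pass (adjusted p = 0.183 in edgeR). Foxj1 and Ccdc153 of the same list had log2 fold changes of 0.04 and -0.02. That of 9 oligodendrocyte markers was 3479 to 4260 CPM in knockouts and 2852 to 3417 CPM in controls, with 3 higher and 1 lower. Among 8 thalamus markers, whose sum was 115 to 160 CPM in knockouts and 123 to 142 CPM in controls, Shox2 rose and the others did not pass. The sums of 10 inhibitory neuron markers were 823 to 906 CPM in knockouts and 749 to 863 CPM in controls, and none of the 10 passed. For 10 excitatory neuron markers the sums were 2779 to 4135 CPM in knockouts and 2706 to 3133 CPM in controls, and Neurod6 fell. The sums of 6 microglia markers were 120 to 246 CPM in knockouts and 241 to 329 CPM in controls, with C1qa higher. Astrocyte markers summed to 1127 to 1423 CPM in knockouts and 1102 to 1268 CPM in controls, and endothelial markers to 170 to 260 CPM in knockouts and 160 to 205 CPM in controls, with 2 higher and 1 lower in each list. The sum of 7 cerebellum markers was 18.2 to 26.6 CPM in knockouts and 31.1 to 39.4 CPM in controls, mostly from Car8, which fell.

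Ionotropic glutamate receptors are channels of 4 subunits that glutamate opens. AMPA receptors (Gria1 to Gria4) carry the fast current, kainate receptors (Grik1 to Grik5) modulate it on both sides of the synapse, and NMDA receptors pair the obligatory Grin1 with Grin2 or Grin3 subunits and pass calcium. The metabotropic receptors signal through G proteins. GABA-A receptors are chloride channels of 5 subunits, most often alpha, beta and gamma, and GABA-B receptors are G protein-coupled pairs of Gabbr1 and Gabbr2.

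Of the 45 genes, 40 passed the filter on low counts and were tested. Among them 1 rose and 1 fell, the gene that fell being the AMPA receptor gene Gria4, in edgeR's quasi-likelihood test at a Benjamini-Hochberg adjusted p of 0.05 over all genes. Over all 15564 tested genes 6.43% were called, 3.44% as higher and 2.99% as lower, so a count of 2 in 40 is near that background. In 8 of the 40 no knockout value fell within the control range or the reverse (among them Gria4, Grik3, Grik4, Grin2c, Gabrg3 and Grin1os), against 16.2% of all tested genes. An unadjusted p below 0.05 was found for 11 of the 40 and for 25.8% of all tested genes. Without control 2, knockout 2 or knockout 5 no tested receptor gene passed in edgeR (5 of 41, 8 of 40 and 7 of 40 at an unadjusted p below 0.05). In these fits 0.807%, 2.35% and 0.981% of all genes tested were called. Without control 4 there were 4 calls among 41 tested receptor genes, beside 7.23% of all genes, and without knockout 4 there were 5 among 41, beside 13.0% of all genes. Both counts hold Gabrr2, which passed the filter only in fits of this kind. It did so through its knockout counts alone, as no control had more than 2 counts. Its calls there therefore depend on the group in which it is high. The median log2 fold change of the 40 was 0.07, beside -0.0021 for all tested genes, and 27 were positive and 13 negative. The authors' deposited table called 5 of the 41 receptor genes with an adjusted p, 2 as lower (Gria4 and Grik3) and 3 as higher (Gabra5 and Gabrr2 among them), where 10.2% of all genes with an adjusted p were called.

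**Figure D1:**
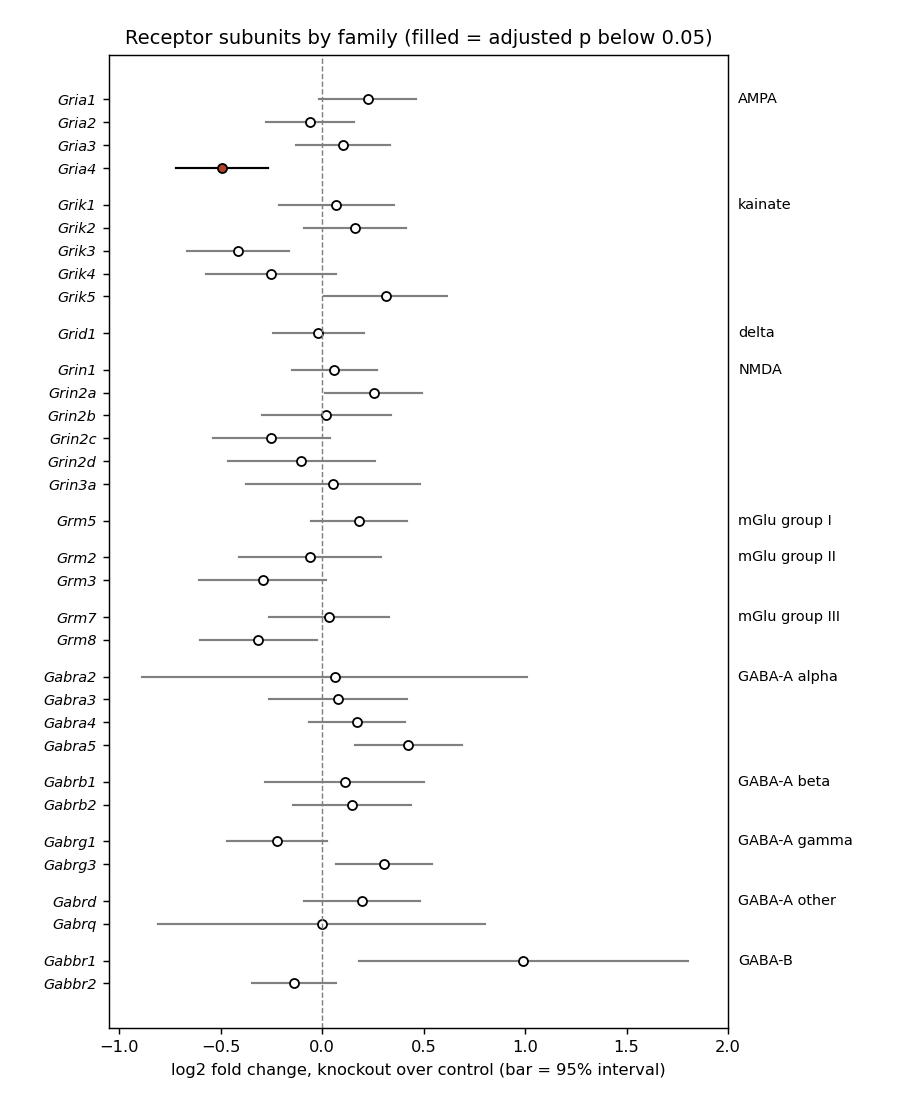
Log2 fold change of knockout over control (x axis) for the receptor subunits described here (listed down the page by family), with the 95% interval as a line. The filled point, Gria4 at -0.49, passed an adjusted p of 0.05, and open points did not.

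Per kb of exon, the scale on which genes can be compared, the receptor genes had a median level of 14.0 CPM per kb, against 3.10 CPM per kb for all tested genes with a length. Among the most abundant were the AMPA subunit Gria2 at 62.8 CPM per kb, the GABA-B subunit Gabbr2 at 59.1, the AMPA subunit Gria1 at 45.9 and the NMDA subunit Grin1 at 43.5 CPM per kb. Each of these 4 stood above at least 96.2% of tested genes. Gria4 and Grik3 lay in the middle of the order at 16.1 and 15.5 CPM per kb, and Grin2d and Gabrq near its end at 1.16 and 1.14 CPM per kb.

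**Figure D2:**
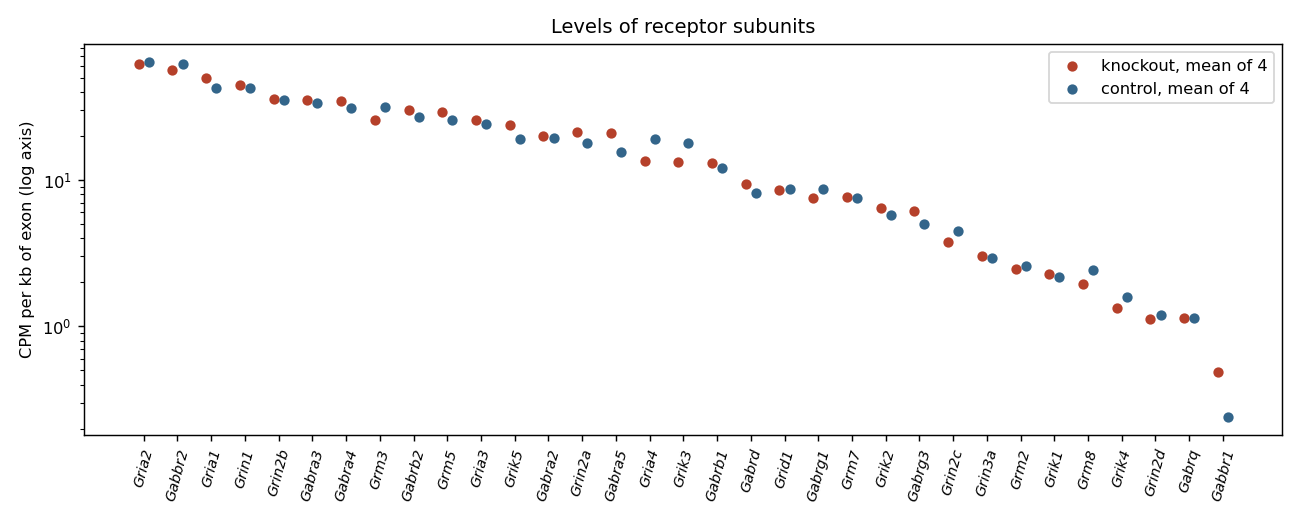
Mean level in CPM per kb of exon (log axis) of the receptor subunits described here, ordered by the mean over all 8 libraries, with knockouts and controls side by side. The order runs from Gria2 at 62.8 to Gabbr1 at 0.36 CPM per kb.

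Gria4 encodes the AMPA subunit with the fastest kinetics, known from parvalbumin interneurons and thalamic relay neurons. It lies on chromosome 9 (GRCm38, 4417896 to 4796234, minus strand). Its level was 84.6, 86.5, 89.9 and 77.2 CPM in knockouts 2 to 5, against 117, 137, 115 and 108 CPM in controls 1 to 4. Every knockout lay below every control. It fell by 0.49 ± 0.10 on the log2 scale (SE, adjusted p = 0.0182 in edgeR), a change of -29.0%, with a 95% interval of -0.72 to -0.27. It did not pass without control 2 (adjusted p = 0.0748), knockout 2 (0.0540) or knockout 5 (0.0739), and its log2 fold change kept between -0.54 and -0.43 in all 8 fits that left out 1 library.

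The other 3 AMPA genes did not pass. Gria1 was at 260, 323, 261 and 352 CPM in knockouts 2 to 5, against 265, 263, 253 and 243 CPM in controls, a log2 fold change of 0.22 ± 0.11 (adjusted p = 0.229 in edgeR). Knockouts 3 and 5 were the high libraries. Gria2, which sets the low calcium permeability of AMPA receptors, was at 958, 1035, 1021 and 812 CPM in knockouts and 980, 929, 989 and 1093 CPM in controls. Its log2 fold change was -0.06 with a 95% interval of -0.28 to 0.16, and that of Gria3 was 0.10 with an interval of -0.13 to 0.33. As a share of the family's CPM per kb, Gria4 made up 8.93% ± 0.51 in knockouts and 12.7% ± 1.601 in controls (SD, n = 4 each), and its highest knockout, 9.39%, was below its lowest control, 10.96%. The shares of Gria1, Gria2 and Gria3 overlapped between the groups.

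**Figure D3:**
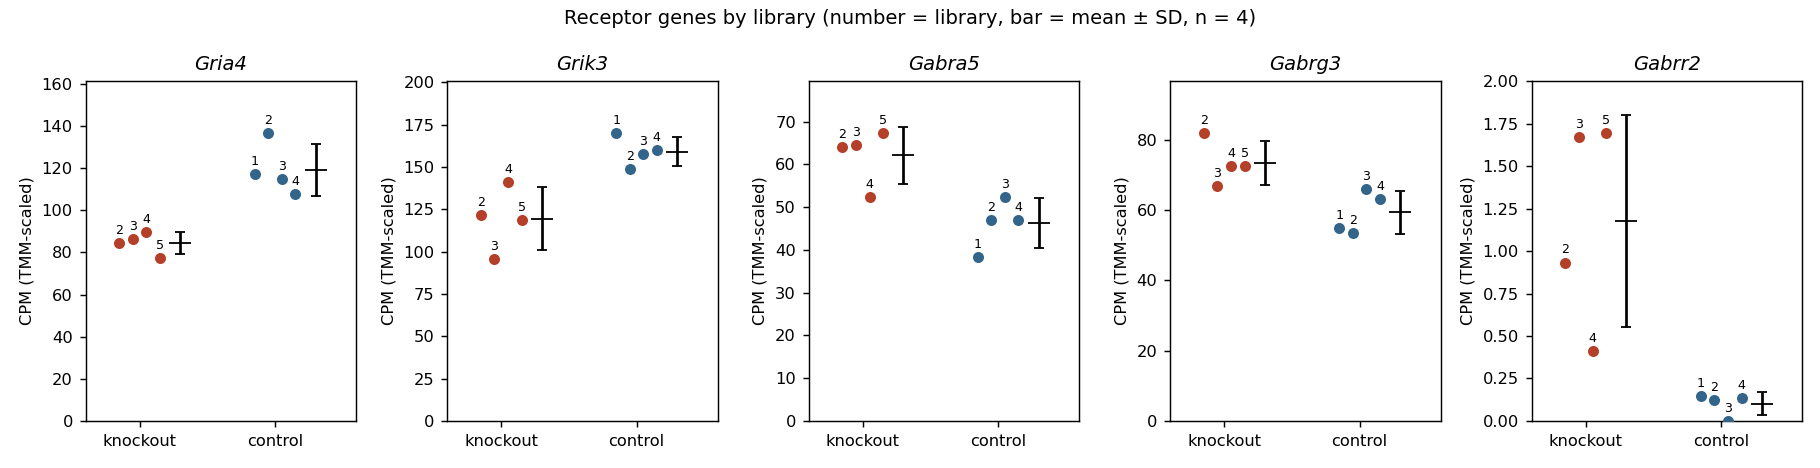
Level in TMM-scaled CPM (y axis, from 0) of 5 receptor genes in each knockout and control library, numbered as in the deposited table, with mean ± SD (n = 4) as black bars. Gria4 and Grik3 lie lower and Gabrg3 and Gabrr2 higher in every knockout than in every control, while for Gabra5 knockout 4 at 52.4 CPM is level with control 3 at 52.5 CPM.

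No kainate receptor gene passed in edgeR, where 2 of the 5 had an unadjusted p below 0.05. DESeq2 called 1 (Grik3) and limma voom none, where they called 1824 and 943 of all 15564 tested genes. Grik3, a low-affinity subunit (chromosome 4, 125490700 to 125714173), was at 122, 95.8, 141 and 119 CPM in knockouts 2 to 5, against 170, 149, 158 and 160 CPM in controls 1 to 4. Every knockout lay below every control, with knockout 3 lowest. Its log2 fold change was -0.41 ± 0.12 and its adjusted p of 0.0525 in edgeR missed the threshold, while the authors' deposited table gives -0.41 ± 0.13 with an adjusted p of 0.0283. With 1 library left out the edgeR value ranged from -0.495 without knockout 4 (adjusted p = 0.0146) to -0.308 without knockout 3 (0.0765). The other 7 fits did not pass, with adjusted p up to 0.134 without knockout 5. Grik5, a high-affinity subunit that needs a partner of the Grik1 to Grik3 type, was at 121, 89.0, 130 and 151 CPM in knockouts and 92.1, 95.5, 97.7 and 109 CPM in controls. Its log2 fold change was 0.31 ± 0.14 (adjusted p = 0.1803), and with 1 library left out it ranged from 0.198 without knockout 5 (adjusted p = 0.455) to 0.451 without knockout 3 (0.0308), the only one of the 8 fits that passed. The related Grik4 was at 8.22, 6.53, 8.72 and 8.21 CPM in knockouts and 9.42, 9.60, 8.86 and 9.99 CPM in controls, with no overlap (-0.25 ± 0.15, adjusted p = 0.305), and Grik1 and Grik2 did not pass (0.07 ± 0.13 and 0.16 ± 0.12).

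Per kb, Grik3 held 28.3% ± 2.0501 of the kainate family in knockouts and 38.3% ± 2.54 in controls, and Grik5 held 49.99% ± 4.38 in knockouts and 41.1% ± 1.47 in controls (SD, n = 4 each). Neither share overlapped between the groups, nor did that of Grik4, at 2.65% to 2.92% in knockouts and 3.18% to 3.65% in controls. Shares of a family sum to a fixed total, so a lower share of Grik3 goes with higher shares elsewhere. The ratio of Grik3 to Grik2 per kb was 1.68 to 2.29 in knockouts and 2.69 to 3.86 in controls. No test was made on shares or ratios.

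**Figure D4:**
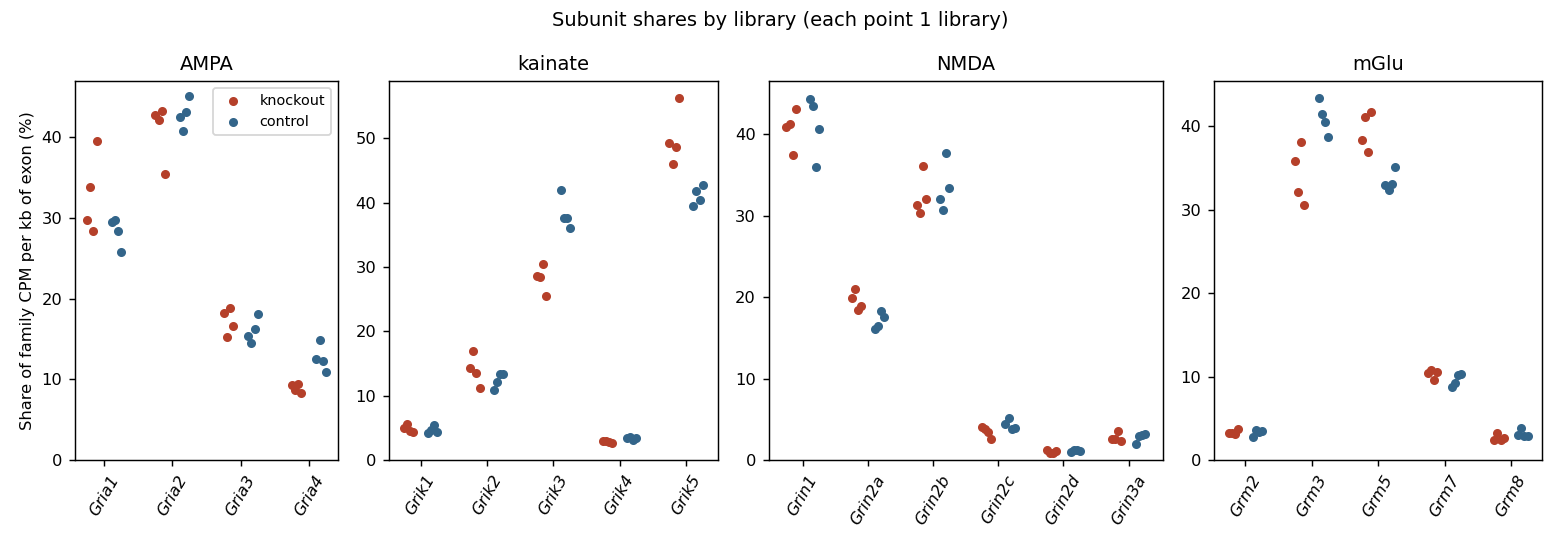
Share of the subunits described here in their family's summed CPM per kb of exon (y axis, percent), with 1 point per library, knockouts left of controls. The groups separate for Gria4, Grik3, Grik4, Grik5, Grin2a, Grm3 and Grm5, and overlap for the other subunits shown. For Grik3 the shares are 25.5% to 30.5% in knockouts and 36.1% to 41.95% in controls. Metabotropic genes of all groups are pooled as a single family, and no test was made on shares.

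Delta receptors bind cerebellins and act as synaptic organisers more than as channels. Grid1 was at 50.4, 45.8, 54.7 and 54.1 CPM in knockouts 2 to 5, against 52.4, 50.4, 56.6 and 48.5 CPM in controls 1 to 4. The groups overlapped, and its log2 fold change was -0.02 ± 0.10.

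None of the 6 tested NMDA receptor genes passed in edgeR, where 1 had an unadjusted p below 0.05, and none in DESeq2 or limma voom. Grin1 was at 412, 394, 433 and 484 CPM in knockouts and 452, 381, 408 and 414 CPM in controls (0.06, 95% interval -0.15 to 0.27). Grin2a, the subunit that gains weight as the cortex matures, was at 371, 371, 394 and 392 CPM in knockouts and 302, 266, 383 and 330 CPM in controls (0.25 ± 0.11, adjusted p = 0.170 in edgeR). Control 3 was the control within the range of the knockouts. Grin2b was at 807, 740, 1071 and 922 CPM in knockouts and 837, 690, 1094 and 872 CPM in controls (0.02, interval -0.30 to 0.34). The Grin2a to Grin2b ratio per kb was 0.636, 0.695, 0.509 and 0.590 in knockouts 2 to 5, against 0.4998, 0.535, 0.485 and 0.524 in controls 1 to 4, with knockout 4 within the control range. Grin2a made up 18.4% to 21.04% of the family's CPM per kb in knockouts and 16.04% to 18.3% in controls.

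Grin2c, a subunit of cerebellar granule cells and astrocytes, was at 20.93, 18.8, 20.8 and 15.2 CPM in knockouts and 23.5, 23.3, 22.4 and 20.98 CPM in controls (-0.25 ± 0.13, adjusted p = 0.255 in edgeR), so the groups just failed to touch. Grin2d (-0.10 ± 0.17) and Grin3a (0.05 ± 0.20) overlapped. Grin3b was below the filter with 4 counts in all knockouts and 2 in all controls, and 32.1% of its exon length overlaps Tmem259 on the opposite strand. Grin1os was at 2.33, 5.85, 2.28 and 1.97 CPM in knockouts and 0, 0.31, 0.77 and 1.82 CPM in controls (2.07 ± 0.73, adjusted p = 0.114), and every knockout lay above every control. With 1 library left out the value ranged from 1.593 without knockout 3 (adjusted p = 0.179) to 2.98 without control 4 (0.0364), and in the other 7 fits the adjusted p was 0.121 to 0.256. Of its exons 45.2% lie across those of Grin1, whose reads cannot be told apart from its own without strand.

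No metabotropic glutamate receptor gene passed in edgeR, DESeq2 or limma voom, and 1 of the 6 had an unadjusted p below 0.05. The most abundant per kb were Grm3, a group II receptor of astrocytes and neurons, and Grm5, the main group I receptor of cortical neurons. Grm3 was at 85.2, 65.1, 101 and 62.4 CPM in knockouts 2 to 5, against 88.7, 93.3, 101 and 102 CPM in controls (-0.29 ± 0.14, adjusted p = 0.220 in edgeR). Knockouts 3 and 5 were low and knockout 4 was at the level of the controls, and with 1 library left out the value ranged from -0.430 without knockout 4 (adjusted p = 0.0430) to -0.199 without knockout 5 (0.478). Only the fit without knockout 4 passed, and in it 2055 genes were called over all, against 1001 with all libraries. Grm5 was at 306, 280, 327 and 286 CPM in knockouts and 226, 245, 276 and 310 CPM in controls (0.18 ± 0.11, adjusted p = 0.329). Per kb, Grm3 held 30.5% to 38.2% of the 6 metabotropic genes in knockouts and 38.7% to 43.4% in controls, and Grm5 held 36.9% to 41.7% in knockouts and 32.4% to 35.1% in controls. Within group II alone the share of Grm3 overlapped, at 89.2% to 92.4% in knockouts and 91.8% to 94.0% in controls. That of Grm5 within group I did not overlap. The presynaptic receptor Grm8 was at 17.6 to 21.1 CPM in knockouts and 19.99 to 27.8 CPM in controls (-0.31 ± 0.13, adjusted p = 0.158). Grm7, the most abundant of group III per kb, was at 48.1, 42.2, 49.0 and 41.5 CPM in knockouts and 34.7, 40.05, 49.1 and 52.7 CPM in controls (0.03 ± 0.14). The log2 fold change of Grm2 was -0.06 ± 0.16.

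None of the 13 tested GABA-A genes passed in edgeR, where 2 had an unadjusted p below 0.05. DESeq2 called 1, Gabra5, and limma voom none, where they called 1824 and 943 of all 15564 tested genes. The log2 fold changes of the GABA-A genes were positive for 11 of the 13, with a median of 0.15, where 49.8% of all tested genes were positive. Genes of one library come from the same RNA, so these signs are not independent. Without knockout 4, Gabra2 (-0.096), Gabra3 (-0.013) and Gabrb1 (-0.045) were negative. Gabra5, the alpha subunit of tonic inhibition in hippocampus and deep cortex, was at 64.0, 64.6, 52.4 and 67.4 CPM in knockouts 2 to 5, against 38.4, 47.1, 52.5 and 47.1 CPM in controls 1 to 4. All but knockout 4 lay above every control. Its log2 fold change was 0.42 ± 0.12 (adjusted p = 0.0560 in edgeR), and 0.42 ± 0.14 with an adjusted p of 0.0334 in the authors' deposited table. With 1 library left out the edgeR value ranged from 0.342 without control 1 (adjusted p = 0.148) to 0.503 without knockout 4 (0.0165), the only one of the 8 fits that passed. Gabrg3 was at 81.9, 66.8, 72.5 and 72.5 CPM in knockouts and 54.9, 53.6, 65.9 and 63.2 CPM in controls (0.31 ± 0.11, adjusted p = 0.103), with every knockout above every control. As shares of CPM per kb within the alpha, beta and gamma families, all GABA-A subunits overlapped between the groups, Gabra5 and Gabrg3 included.

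Many GABA-A genes sit in clusters. On chromosome 7 Gabrg3 and Gabra5 lie next to each other between 56716465 and 57510059, with log2 fold changes of 0.31 and 0.42. On chromosome 11 Gabrb2, a beta subunit of synaptic receptors, was at 194, 156, 232 and 177 CPM in knockouts and 147, 154, 188 and 196 CPM in controls, a log2 fold change of 0.15 with a 95% interval of -0.15 to 0.44 and a range of 0.042 to 0.243 with 1 library left out. Its groups overlapped, with knockout 4 highest. Its neighbour Gabra6, known from cerebellar granule cells, had 3 counts in all knockouts and 2 in all controls. On the X chromosome the log2 fold change of Gabra3 was 0.08 ± 0.16 and that of Gabrq -0.0033 ± 0.37, and Gabre had 1 count in all knockouts and 2 in all controls. Gabrd, the subunit of extrasynaptic receptors, lies apart on chromosome 4 and was at 27.2, 25.7, 28.2 and 26.3 CPM in knockouts and 20.2, 24.2, 20.9 and 28.7 CPM in controls (0.19 ± 0.13).

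The chromosome 5 cluster holds Gabrg1, Gabra2, Gabra4 and Gabrb1 between 70751047 and 72149037. Gabra2, a synaptic alpha subunit studied in anxiety and alcohol response and chosen here after its values were seen, varied more between libraries than between groups. It was at 123, 103, 202 and 183 CPM in knockouts 2 to 5 and at 182, 93.3, 77.1 and 234 CPM in controls 1 to 4. Knockouts 4 and 5 and controls 1 and 4 were high, and the other 4 libraries low. Its coefficient of variation was 30.9% in knockouts and 50.7% in controls, above 94.6% and 99.8% of the 3293 tested genes with a mean of at least 50 CPM, whose medians were 11.6% and 9.45%. Its neighbours did not follow that split. Gabrg1 was at 62.4, 49.1, 66.7 and 57.3 CPM in knockouts and 69.9, 68.5, 73.6 and 63.0 CPM in controls (-0.22 ± 0.11, adjusted p = 0.235 in edgeR). Gabra4 was at 213, 186, 233 and 212 CPM in knockouts and 160, 185, 190 and 214 CPM in controls (0.17 ± 0.11), and Gabrb1 at 170, 140, 237 and 171 CPM in knockouts and 132, 138, 203 and 192 CPM in controls (0.11 ± 0.18). The log2 fold change of Gabra2 was 0.06 with a 95% interval of -0.89 to 1.01, a range that holds changes in either direction. The value turned negative without control 2 (-0.11), control 3 (-0.15), knockout 4 (-0.10) or knockout 5 (-0.04).

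**Figure D5:**
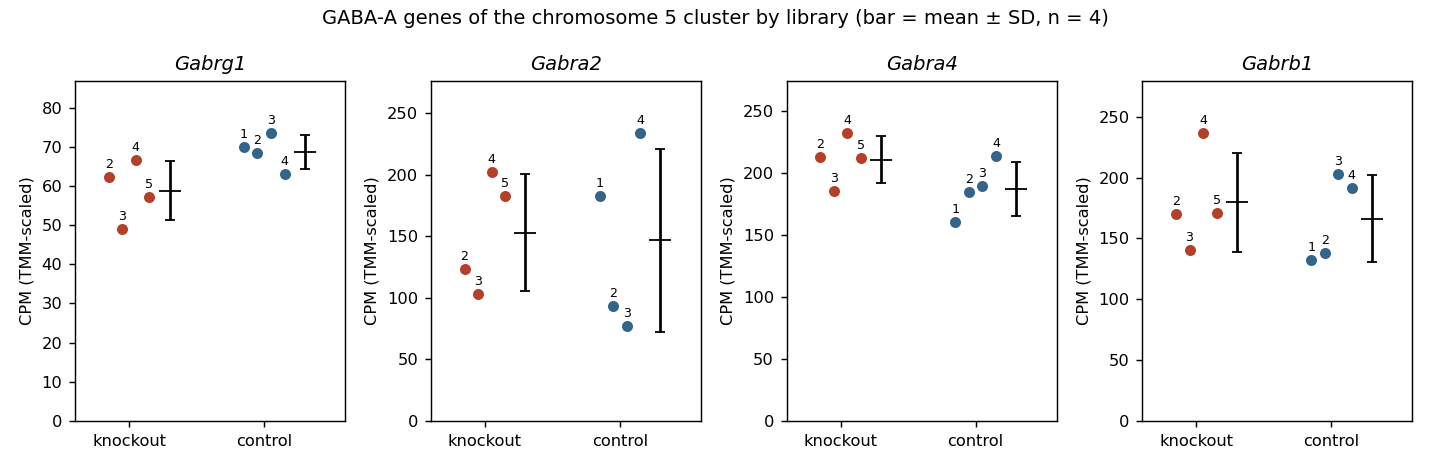
Level in TMM-scaled CPM (y axis, from 0) of the 4 GABA-A genes of the chromosome 5 cluster in each knockout and control library, with mean ± SD (n = 4) as black bars. Gabra2 ranges from 103 to 202 CPM in knockouts and 77.1 to 234 CPM in controls, a wider spread relative to its mean than its 3 neighbours show.

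Gabrr2, a rho subunit best known from retina, was below the filter but had counts almost only in knockouts. It had 16, 22, 7 and 25 counts in knockouts 2 to 5, against 2, 2, 0 and 2 counts in controls 1 to 4. In CPM that is 0.93, 1.67, 0.41 and 1.70 in knockouts and 0.14, 0.13, 0 and 0.13 in controls, and every knockout lay above every control. The summed counts, 70 in knockouts and 6 in controls, gave a ratio of 11.05 per total count, with an exact 95% interval of 4.83 to 31.1 that covers counting error only. Without the filter, edgeR gave a log2 fold change of 3.48 ± 0.65 with an adjusted p of 2.82e-04, where 5.45% of 28732 genes were called. The authors' deposited table gives 3.59 ± 0.81 with an adjusted p of 5.79e-04. Its neighbour Gabrr1, another rho subunit, had 3 counts in knockouts and 3 in controls. Gabrr2 lies on chromosome 4, 33062999 to 33095865, which is 1.04 Mb from Map3k7. The choroid plexus transcript Ttr was at 496, 351, 418 and 513 CPM in knockouts 2 to 5 and 9.35, 8.54, 5.74 and 174 CPM in controls 1 to 4 (adjusted p = 0.183 in edgeR), and the thalamic Shox2 at 1.40, 3.34, 3.22 and 1.09 CPM in knockouts and 0, 0.063, 0.22 and 0 CPM in controls. In control 4 Ttr lay above the other controls but below every knockout, and Gabrr2 had 2 counts there. The part of choroid plexus or thalamic tissue in the Gabrr2 result was not tested.

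GABA-B receptors need both subunits. Gabbr2 was at 395, 380, 326 and 404 CPM in knockouts and 410, 399, 445 and 403 CPM in controls (-0.14, 95% interval -0.35 to 0.07). Gabbr1 was listed at 1.81, 4.71, 4.92 and 3.597 CPM in knockouts and 1.51, 1.00, 3.12 and 1.82 CPM in controls (0.99 ± 0.37, adjusted p = 0.1198 in edgeR). Per kb it stood at 0.36 CPM against 59.1 for Gabbr2, although the encoded proteins pair, and with 16 to 84 counts per library its level is uncertain. No other annotated exon overlaps it. Neither gene passed in DESeq2 or limma voom, and 1 had an unadjusted edgeR p below 0.05.

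Promoter sequence is shown for the 2 glutamate receptor genes with the most negative log2 fold changes and for Gabrr2, as bases upstream of the start that RefSeq annotates on GRCm38.p6. Capitals mark letters of a searched motif.
Gria4 (chr9:4796235-4796484, minus strand): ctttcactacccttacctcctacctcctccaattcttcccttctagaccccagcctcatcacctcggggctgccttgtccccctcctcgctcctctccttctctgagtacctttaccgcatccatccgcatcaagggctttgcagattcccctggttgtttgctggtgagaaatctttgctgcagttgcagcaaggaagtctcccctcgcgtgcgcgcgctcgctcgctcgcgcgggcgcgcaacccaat
Grik3 (chr4:125490446-125490695, plus strand): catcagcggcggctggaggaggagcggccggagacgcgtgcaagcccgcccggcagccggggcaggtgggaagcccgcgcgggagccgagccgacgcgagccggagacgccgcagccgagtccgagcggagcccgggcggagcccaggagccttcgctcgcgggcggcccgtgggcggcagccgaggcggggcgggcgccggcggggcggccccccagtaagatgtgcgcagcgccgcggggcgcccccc
Gabrr2 (chr4:33062862-33062998, plus strand, the bases before the GENCODE start): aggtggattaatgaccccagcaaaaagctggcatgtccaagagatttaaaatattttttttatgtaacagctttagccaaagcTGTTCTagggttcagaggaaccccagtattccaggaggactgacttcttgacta
The 250 bases upstream of Grik3 were 82.0% G or C with 42 CpG, those of Gria4 58.8% with 16 and those of Gabrr2 47.6% with 1. TGTTCT, the core letters of a glucocorticoid receptor site, was looked for on both strands and stood once in the Gabrr2 window, as it did in 16.1% of the 32851 windows of the table. TGACGTCA (1.55% of windows), TGACG (17.8%, also contained in TGACGTCA), TGANTCA (6.75%), ACGTG (16.6%) and GCGTGGGCG (0.536%), the letters of cyclic AMP, AP-1, hypoxia and EGR sites, were in none of the 3 windows. Of the 45 genes 31 had an entry, and a match is a description of letters, not of binding.

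Many receptor genes had the same libraries at the top and bottom of a group. Knockout 4 was the highest knockout for 28 of the 40 tested genes, against 30.1% of all tested genes, and knockout 3 the lowest for 24, against 30.4%. Among controls, control 1 was lowest for 21 of the 40, against 29.4% of all genes, and control 4 highest for 19, against 26.4%. For Gabrb1, Gabrb2, Grin2b and Grin3a, knockout 4 was the highest knockout and knockout 3 the lowest. The highest control was control 4 for Gabrb2 but control 3 for Gabrb1, Grin2b and Grin3a. The genes of one library come from the same RNA, so these counts are not independent. The cause of the shared order was not tested.

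Among 35 tested genes whose proteins carry, anchor or tune receptors, 1 rose and 2 fell. That is 8.57%, beside 6.43% of all tested genes, and the list's median log2 fold change was -0.04. Shisa7, which encodes an auxiliary subunit of AMPA and GABA-A receptors, was at 76.2, 73.6, 58.8 and 84.6 CPM in knockouts 2 to 5, against 40.3, 40.7, 51.8 and 53.4 CPM in controls (0.65 ± 0.14, adjusted p = 0.0180 in edgeR). Homer2, whose protein links group I metabotropic receptors to calcium stores, fell and was at 63.5, 55.6, 58.1 and 49.1 CPM in knockouts and 84.9, 76.9, 76.4 and 76.7 CPM in controls (-0.48 ± 0.11, adjusted p = 0.0220). Grip2, an AMPA receptor anchor, fell and was at 11.1, 8.35, 10.5 and 10.2 CPM in knockouts and 15.5, 15.1, 15.2 and 12.4 CPM in controls (-0.53 ± 0.14, adjusted p = 0.0446). For all 3 the groups did not overlap. The list had 0 calls in edgeR without control 1, control 2 or knockout 5, 1 without control 3 or knockout 2, and 6 without knockout 4.

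Of 17 genes that make, load or clear glutamate and GABA, 1 rose and none fell in edgeR, with a median of 0.07. That is 5.88%, beside 6.43% of all tested genes. Glul, the glutamine synthetase of astrocytes that turns glutamate into glutamine, was at 621, 602, 578 and 723 CPM in knockouts 2 to 5, against 420, 426, 431 and 414 CPM in controls 1 to 4 (0.58 ± 0.09, adjusted p = 0.00756). The list had 2 calls without knockout 3, beside 7.1% of all genes, and 2 without knockout 4, beside 13.0% of all genes. In the fit without knockout 4, Abat, a GABA-degrading enzyme, was the other call. Every knockout lay above every control for Glul, and Gad1, Gad2 and the GABA and glutamate vesicle transporters did not pass.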

How the data were processed

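Cortical RNA of 4 knockout and 4 control libraries was analysed from 1 deposited table. The submitters' processing notes name FastQC, HISAT, HISAT2, featureCounts, DESeq2 and the build GRCm38. The versions, the gene annotation and the strand setting are not given in the sources used here, and the kit in the labels is one sold for ChIP libraries. The deposited counts are whole numbers per gene and library without normalization. The table also holds the authors' DESeq2 results: the deposited mean signal (counts divided by size factors), each gene's deposited log2 change with error, the deposited score (fold change over error) and the deposited p-values.

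Of 29012 lines, 280 repeats were removed, and 28682 of 28732 gene IDs matched GENCODE release M21, which gave positions and exon lengths. Genes were kept with edgeR's filterByExpr (minimum count 10), scaled by TMM and tested with the robust quasi-likelihood F test, adjusted over all 15564 genes kept. No covariate was used. Standard errors and 95% intervals come from that test. Depth was 13483354 to 17728963 counts. Levels are compared between genes as CPM per kb of exon union. Replicates differed beyond counting noise in every pair. The receptor genes, lists and promoter motifs were chosen with earlier results of these data known. Values in every library are given, by rule, for genes that passed, whose groups do not overlap, or that lead their family per kb, and up to 6 passing genes of each further list. Other genes given by library, Gabra5 and Gabra2 among them, were chosen after their values were seen. Alternatives were DESeq2 size factors, other filters, DESeq2, limma voom, an adjusted p of 0.1, leaving out each library, and the column number as a block. Numbers 2 to 4 stand in both groups' column names, but the sample titles number the groups 1 to 4 and 5 to 8. The test was checked on simulated data. Some genes of the families and lists were kept in every fit and count but are not reported here by name. The software was edgeR 4.0.16, DESeq2 1.42.0 and limma 3.58.1 under R 4.3.3, and pandas 2.3.3, scipy 1.17.1 and matplotlib 3.10.9 under Python 3.11.15.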

Additional observations from a re-analysis of the deposited data

Results flagged for a closer look

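The outlier search covered 80 groups, the knockouts and the controls of each of the 40 tested genes, and marked 2, where chance marks about 1 group in 20. Grin3a, an NMDA receptor subunit, stood at 51.6 CPM in knockout 4, far above the other knockouts at 31.8 to 33.0 CPM. Grin1os, the antisense transcript of Grin1, stood at 5.85 CPM in knockout 3, against 1.97 to 2.33 CPM in the other knockouts.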

How the results depend on the processing

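For the 34 tested receptor genes described singly, 476 values were recomputed under alternatives. Of these 431 kept their sign and their side of the threshold, 4 lost a call, 9 gained a call and 32 changed sign, and 22 genes never changed sign. The count of all genes that passed, 1001, became 1566 without the filter, 1824 in DESeq2, 17 with the column number as a replicate block, 2183 at an adjusted p of 0.1, and 128 to 2055 when 1 library was left out (325, 128 and 467 without control 1, 2 or 3, and 370, 2055 and 155 without knockout 2, 4 or 5). The 2 receptor calls became 5 without the filter, 4 in DESeq2, 4 at an adjusted p of 0.1, and 0 to 5 when 1 library was left out, with 0 without control 2, knockout 2 or knockout 5 in edgeR (5, 8 and 7 at an unadjusted p below 0.05). The 3 calls among carrier and anchor proteins became 5 without the filter, 5 in DESeq2 and 0 to 6 when 1 library was left out (8, 7 and 9 unadjusted without control 1, control 2 or knockout 5, where the count was 0). The single call among ligand genes ranged from 1 to 2. The AMPA median of 0.02 ranged from -0.026 to 0.084 when 1 library was left out.

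With the replicate block in edgeR, receptor, carrier and ligand calls were 0, 0 and 0 (6, 7 and 1 unadjusted). The signs of Gabra3 (-0.055), Gria2 (0.005), Grin2b (-0.012), Grin3a (-0.050) and Grm7 (-0.021) turned. Control 1 and knockout 5 have no library of their number in the other group. In the block fit they therefore add nothing to the group difference. Fewer libraries than in the main fit thus set these counts, the 17 calls over all genes and the turned signs. Whether pairing or the loss of these libraries made the difference was not tested. Libraries of the same number had correlations of 0.012, -0.211 and 0.223 between their deviations from the group means. These values differ in sign and do not settle whether the numbers pair the libraries.

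When 1 library was left out, signs also turned for genes near 0, whose log2 fold changes ranged over -0.15 to 0.38 (Gabra2), -0.013 to 0.236 (Gabra3), -0.045 to 0.224 (Gabrb1), -0.36 to 0.24 (Gabrq), -0.097 to 0.011 (Gria2), -0.054 to 0.044 (Grid1), -0.002 to 0.11 (Grin1), -0.082 to 0.144 (Grin2b), -0.18 to 0.005 (Grin2d), -0.14 to 0.17 (Grin3a), -0.188 to 0.014 (Grm2) and -0.067 to 0.127 (Grm7). The cause was not tested. At this depth and number of libraries, 95% intervals of receptor subunits were widest for Gabra2, Gabbr1 and Gabrq.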
